A study of Mus musculus with 14 samples.

Results

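GFP+CD11b+ myeloid cells sorted from brain metastases (BrM) were compared with GFP+CD11b+ cells of bone marrow, the tissue in which transplanted hematopoietic stem cells make their progeny. The BrM were intracranial tumors of the murine breast cancer lines PyMT (PyMT-Br, 4 arrays) and EO771 (EO771-Br, 2 arrays). Bone marrow was represented by 1 array of a PyMT BrM-bearing mouse (PyMT-BM) and 2 arrays of tumor-free marrow (naïve-BM). These are the 9 BrM and bone marrow arrays of a series of 14, whose 5 spleen arrays were left out except where they are named. All mice were C57Bl/6J and 14 weeks old, and tumors had grown for 2 weeks. The marrow of the tumor-bearing mice had been ablated by irradiation and replaced with stem cells carrying GFP under the ubiquitin C promoter, so that the GFP gate kept donor-derived cells and the CD11b gate kept myeloid cells. Whether the naïve mice had been transplanted in the same way is not given in the sources used here. Marrow of EO771-bearing mice was not used because viable cells could not be obtained, and naïve marrow stands in its place.

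CD11b+ cells of the marrow are a mixture of granulocytes at all steps of their formation, monocytes and their precursors. A neutrophil makes its granules in a fixed order. Azurophil granules come first in promyelocytes, then specific granules in myelocytes, and gelatinase granules and secretory vesicles in the maturing cell. Monocytes leave the marrow, enter inflamed or malignant tissue and become macrophages there, which take up debris, digest it in lysosomes, present antigen and secrete chemokines and matrix-degrading enzymes. Comparing the tumor with the marrow therefore asks which of these transcripts were higher or lower in the sorted cells of BrM. A gain or loss below means such a difference between sorted mixtures, not a change followed in the same cells.

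Each array gave a quantile-normalized log2 signal for 45281 probes, with a median of 4.06, a lower end of -1.68 and an upper end of 14.575. A gene was represented by its brightest probe, which gave 19057 genes. Across all probes, the arrays correlated at 0.920 to 0.968 within BrM, at 0.941 to 0.968 within bone marrow and at 0.871 to 0.909 between the tissues. The naïve-BM arrays carry the same mouse number, with a letter added to 1 of them, and may be of 1 mouse. EO771-Br 2 carries 2 mouse numbers and may be a pool. The EO771-Br arrays stood apart in sex-linked genes, which were looked at after their values had been seen. Xist, the RNA that silences an X chromosome in female cells, had 3.04 and 3.61 in EO771-Br and 6.77 to 7.34 in PyMT-Br, against 7.12, 7.88 and 8.19 in bone marrow. Eif2s3y of the Y chromosome had 8.76 and 8.77 in EO771-Br and 4.94 to 6.14 in PyMT-Br, against 5.30, 2.90 and 3.15 in bone marrow. Its other probe had a mean of 4.58 in BrM and 4.55 in bone marrow. The other probes of Xist differed by -0.35, -1.77 and -0.98 between all BrM and all marrow arrays, and none was called. The difference within PyMT, which uses no EO771-Br value, is given with the models.

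The genes of the sort were looked at first. Itgam, which encodes CD11b, had 7.29, 7.50 and 7.94 (lowest, median, highest) in the 6 BrM arrays, against 8.26, 8.43 and 8.36 in PyMT-BM 1, naïve-BM 1 and naïve-BM 2. Its log2 difference was -0.77 (SE 0.21, limma adjusted p = 0.0355). The leukocyte antigen gene Ptprc differed by -0.43 (SE 0.78, limma adjusted p = 0.806), with the lowest of all 9 values, 4.40, in PyMT-BM 1. None of 6 measured sort and pan-leukocyte genes was called by limma, and 4 had an unadjusted p under 0.05.

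A gene was called at an adjusted p under 0.01 from limma, adjusted over all probes. On this rule 1678 probes (3.71%) were higher and 1772 (3.91%) lower in BrM, together 7.62% of all probes, and each of them had all 6 BrM arrays on the same side of all 3 marrow arrays. Counted by gene, 993 (5.21%) were higher and 1011 (5.31%) lower. These shares are the ones to set beside the counts of each gene list below. More than 10-fold differences were seen for 105 genes higher and 172 lower, and more than 100-fold differences for 6 higher and 11 lower. Of the genes called, 287 of those higher had a mean marrow signal below 5 and 324 of those lower had a mean BrM signal below 5, beside a median signal of 4.06. A fold against a signal that low depends on the array's background, so differences of genes this dim in 1 tissue are given on the log2 scale alone. The median difference of all genes was -0.015. The counts moved with the naïve-BM arrays. With both averaged to 1 array, 743 probes were higher and 1013 lower. The counts were 729 and 998 without naïve-BM 1, and 737 and 988 without naïve-BM 2. The comparison was also fitted with all 14 arrays and with equal weight for each of the 6 groups of the series. Both of these fits take their spread from the spleen arrays as well, so a call can change in them through the spleens. Other fits took the mouse number as a random block or had a fixed block for the set of mice. The set, PyMT mice or EO771 and naïve mice together, was defined here and is not given by the labels. Its EO771-Br and naïve-BM arrays differed in Xist and Eif2s3y, as given above. The share of higher probes among the calls was 48.6%, but 30.7% when each array was centred on reference genes, which moved the median of all probes to -0.23, and no called probe changed sign. In sorted bulk samples, fewer cells of a type and less RNA per cell cannot be told apart.

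**Figure D1:**
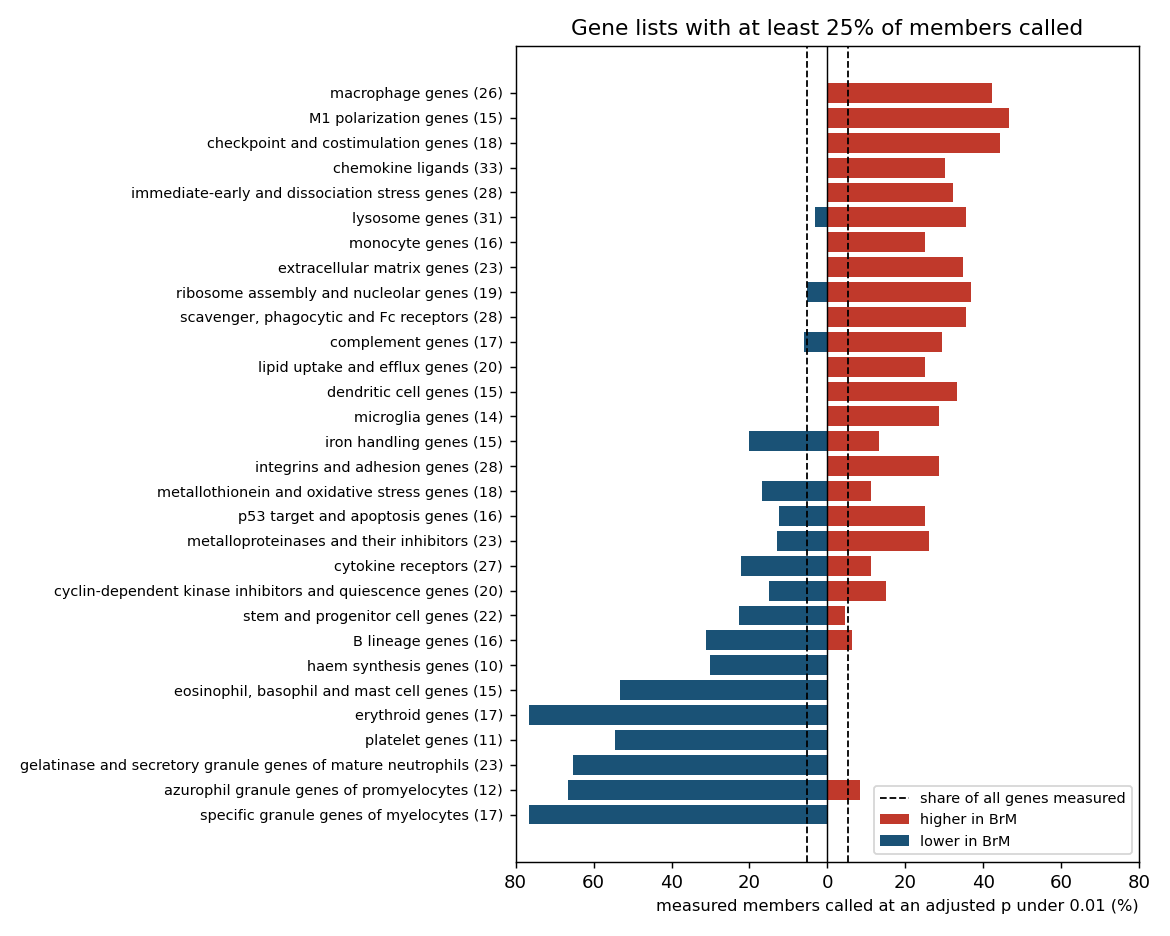
Share of the measured members of each gene list (number in brackets) called lower (blue, left) or higher (red, right) in BrM against bone marrow, for the 30 lists with at least 25% of members called, with the lists sorted by median log2 difference. Dashed lines mark the share among all genes, 5.21% higher and 5.31% lower; granule, erythroid and platelet lists lie wholly or almost wholly to the left, and macrophage and chemokine lists to the right.

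Genes of all 3 steps of neutrophil granule formation fell in BrM. Of 12 measured azurophil granule genes, 8 were lower and 1 higher, with a median difference of -4.18. Of 17 specific granule genes, 13 were lower and none higher (median -4.94), and of 23 genes of gelatinase granules and mature neutrophils, 15 were lower and none higher (median -3.52). The mean level of the specific granule list was 5.94 to 7.54 in the BrM arrays, against 11.40 to 11.63 in bone marrow.

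Mpo and Elane encode the azurophil enzymes myeloperoxidase and neutrophil elastase. Mpo had 3.80, 5.04 and 8.76 (lowest, median, highest) in BrM, against 13.47, 12.87 and 12.84 in bone marrow, and Elane 4.71, 5.12 and 7.50, against 12.15, 11.16 and 11.15. Neither gene overlapped between the tissues, which held for every called probe. Mpo had a log2 difference of -7.60 (SE 0.98, limma adjusted p = 4.94e-04) and Elane one of -6.02 (SE 0.57, limma adjusted p = 7.11e-05). The exception was Ctsc, the protease that activates elastase and a lysosomal enzyme of macrophages as well, which rose by 2.78 (SE 0.24, limma adjusted p = 3.76e-05).

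Among specific granule genes, Ngp, an antimicrobial granule protein, had 3.17, 5.55 and 8.88 in BrM, against 14.09, 14.21 and 14.21 in bone marrow. It fell by 8.32 (SE 1.10, limma adjusted p = 5.80e-04). Camp, the precursor of cathelicidin, fell by 7.58 (SE 0.99) and Itgb2l, an integrin beta chain of maturing granulocytes, by 7.96 (SE 0.55). The ficolin gene Fcnb lay at 3.98 to 5.33 in BrM, against 11.35 to 11.57 in marrow, and the acute phase protein gene Orm1 at 4.54 to 4.82 in BrM, against 11.03 to 11.28 in marrow. Ltf, which encodes lactoferrin, fell by 7.08 (SE 1.11), though its call ended without naïve-BM 1 or naïve-BM 2 (limma adjusted p up to 0.0106). Cebpe, the transcription factor that directs specific granule formation, had 5.14, 6.25 and 8.16 in BrM, against 13.10, 12.68 and 12.58 in bone marrow, and was 83.6-fold lower. Of the mature neutrophil genes, Chil1 fell by 7.47 (SE 0.59), the peptidoglycan-binding protein gene Pglyrp1 by 6.91 (SE 0.60) and the cystatin gene Stfa1 by 5.83 (SE 0.86).

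The BrM arrays were not equal in these genes. PyMT-Br 3, whose mouse code is shared with PyMT-BM 1, had the highest BrM value of Ngp, Mpo, Camp, Elane, Ms4a3, Itgb2l, Stfa1 and Cebpe, and PyMT-Br 1 and the EO771-Br arrays were among the lowest for Mpo and Ngp. Even so, the highest BrM value of Ngp, 8.88 in PyMT-Br 3, lay below the lowest marrow value, 14.09.

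**Figure D2:**
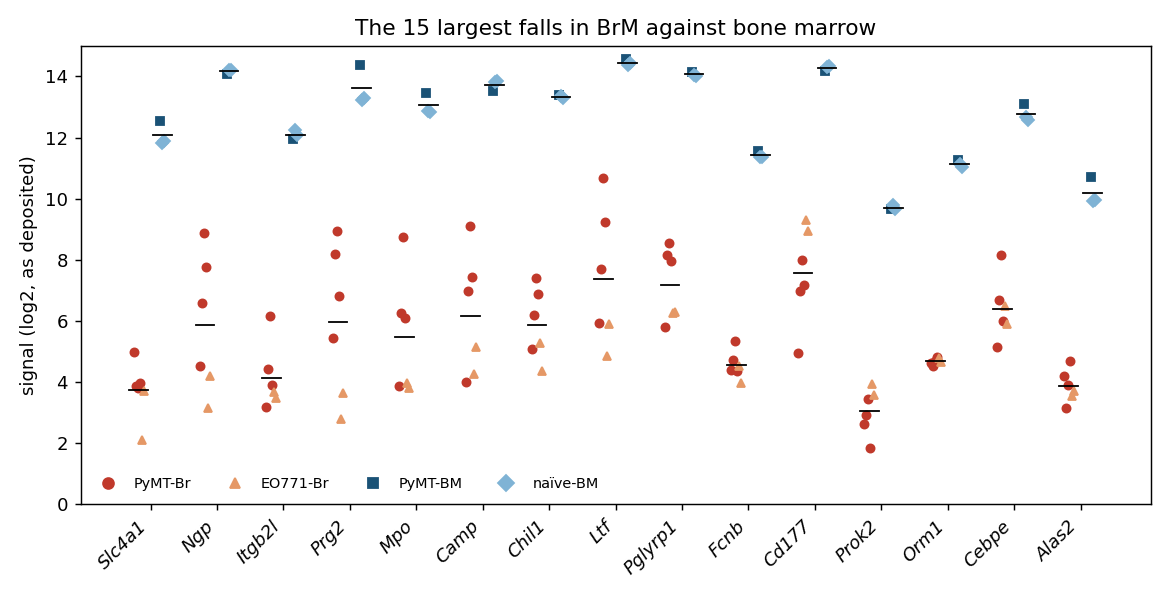
Log2 signal of the 15 genes with the largest falls among called genes, for each of the 6 BrM arrays (left of each pair) and 3 bone marrow arrays (right of each pair), with black lines at the group means. Marrow values lie between 9.65 and 14.575. Only genes whose BrM and marrow arrays do not overlap were eligible, so the separation follows from the choice of genes.

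The promoters of the granule genes were read for short sequence motifs in the 250 bases before each start site in RefSeq (GRCm38.p6), on both strands, counting each motif whether or not it overlapped another. Of the 36 granule genes called lower, 30 had 31 windows. The C/EBP motif TTGCNNAA was in 9 of them (29.0%), against 9.56% of all 32851 windows, and the PU.1 motif GAGGAAG was in 11 (35.5%), against 10.6%. The AP-1 motif TGANTCA was in 3.23% of the granule gene windows, against 6.75% of all windows. The motif AGATAA of GATA factors was in 12.9%, against 9.99%. The E-box CACGTG of TFEB and MITF was in 6.45%, against 6.02%. Over all genes called lower, C/EBP and PU.1 motifs were in 8.68% and 12.2% of windows. Over all genes called higher they were in 7.93% and 12.1%. For genes more than 10-fold lower the shares were 11% and 21.5%, and for genes more than 10-fold higher 9.28% and 18.6%. C/EBP and PU.1 are the factors best known for driving granulocyte genes, so the windows nearest to the start of 3 genes with a C/EBP motif are shown first and 3 with a PU.1 motif after them, each 5′ to 3′ and ending at the base before the start, with the motif in capitals. A match describes the letters and not binding.
Ngp, chr9:110419658-110419807, plus strand: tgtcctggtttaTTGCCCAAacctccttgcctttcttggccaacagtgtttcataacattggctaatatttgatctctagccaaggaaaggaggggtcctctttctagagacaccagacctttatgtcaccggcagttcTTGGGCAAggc
Fcnb, chr2:28084879-28085013, minus strand: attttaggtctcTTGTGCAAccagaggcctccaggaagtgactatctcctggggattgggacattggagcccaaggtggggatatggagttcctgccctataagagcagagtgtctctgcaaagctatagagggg
Ltf, chr9:111019202-111019291, plus strand: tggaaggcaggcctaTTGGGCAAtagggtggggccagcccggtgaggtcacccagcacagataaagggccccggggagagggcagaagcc
Elane, chr10:79886212-79886311, plus strand: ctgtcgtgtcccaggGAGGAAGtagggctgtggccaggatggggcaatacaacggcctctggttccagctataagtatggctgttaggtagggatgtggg
Itgb2l, chr16:96443615-96443684, minus strand: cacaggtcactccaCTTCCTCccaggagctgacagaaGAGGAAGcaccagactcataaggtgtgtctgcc
Pglyrp1, chr7:18884565-18884689, plus strand: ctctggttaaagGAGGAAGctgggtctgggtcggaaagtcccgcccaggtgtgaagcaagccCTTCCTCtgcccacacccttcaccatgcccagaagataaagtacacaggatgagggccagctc

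Genes of other marrow lineages fell with them. Of 15 eosinophil, basophil and mast cell genes, 8 were lower and none higher (median -1.59), with 5 lower with all 14 arrays in the fit. Ear6, an eosinophil ribonuclease, had 3.97, 5.50 and 6.94 in BrM, against 11.94, 10.30 and 10.41 in bone marrow, and fell by 5.45 (SE 0.66, limma adjusted p = 3.37e-04), though it was not called with all 14 arrays (limma adjusted p = 0.0137). The eosinophil granule proteins Prg2 and Prg3 fell by 7.66 (SE 1.22) and 5.24 (SE 0.46), and the call of Prg2 ended when any 1 of the 3 marrow arrays was left out (limma adjusted p up to 0.0115). In all 3 of these genes PyMT-BM 1 was the highest marrow array.

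Of 17 erythroid genes, 13 were lower and none higher (median -2.24), with 8 lower without naïve-BM 1 and 6 with all 14 arrays in the fit. Slc4a1, the anion exchanger of red cells, had 2.12, 3.85 and 4.97 in BrM, against 12.54, 11.84 and 11.90 in bone marrow, the most negative log2 difference among the called genes (-8.35, SE 0.49, limma adjusted p = 3.28e-06). Alas2, the erythroid enzyme that starts heme synthesis, fell by 6.33 (SE 0.33). The alpha globin gene Hba-a1 had 6.82, 8.54 and 11.07 in BrM, against 14.50, 14.31 and 14.27 in marrow, and its call ended when any 1 marrow array was left out (limma adjusted p up to 0.0153). Of 11 platelet genes, 6 were lower and none higher (median -2.70), led by Tubb1, a tubulin of platelets, and Itga2b, the platelet integrin, which fell by 5.18 (SE 0.50) and 4.56 (SE 0.31). The part of red cell or platelet RNA carried with the marrow cells was not tested.

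Of 16 B lineage genes, 5 were lower and 1 higher, against 3 and none with all 14 arrays. Vpreb1, Igll1 and Vpreb3, which make or accompany the surrogate light chain of the pre-B cell receptor, fell by 4.22 (SE 0.18), 3.85 (SE 0.29) and 3.72 (SE 0.29). Vpreb1 lay at 3.84 to 4.36 in BrM, near the array median, against 8.21 to 8.28 in marrow. The member that rose, the adaptor gene Blnk, which macrophages also use, was not called without naïve-BM 1 or naïve-BM 2 (limma adjusted p up to 0.0293). Among 14 T and NK cell genes none was called in either direction by limma, 5 had an unadjusted p under 0.05, and 1 was lower without PyMT-Br 3 or with all 14 arrays.

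Part of the progenitor genes and of the chemokine and cytokine receptor genes were lower. Of 22 stem and progenitor cell genes, 5 were lower and 1 higher. Prom1, which encodes CD133, had 2.47, 3.02 and 3.25 in BrM, against 7.01, 8.10 and 7.82 in bone marrow, and fell by 4.72 (SE 0.29, limma adjusted p = 3.80e-06). Gfi1, a repressor needed for granulocyte formation, had 4.39, 4.92 and 5.18, against 8.83, 9.32 and 9.32, and fell by 4.27 (SE 0.22, limma adjusted p = 1.77e-06). Tal1 and Gata2, regulators of blood progenitors and of erythroid and mast cells, fell by 2.37 (SE 0.33) and 1.90 (SE 0.29), and Kit, the stem cell factor receptor, by 2.22 (SE 0.37), a call that ended when any 1 marrow array was left out (limma adjusted p up to 0.0146). Tal1 was not called with all 14 arrays (limma adjusted p = 0.0526) or with 6 equally weighted groups (limma adjusted p = 0.0235). The member that rose was Cebpa, a factor of early myeloid commitment that monocytes retain (1.75, SE 0.25, limma adjusted p = 0.00103, but 0.0205 with equally weighted groups). Of 23 chemokine receptors and genes of marrow exit, 3 were lower and 1 higher. Cxcr2 and Cxcr1, the receptors through which neutrophils are called, fell by 4.54 (SE 0.55) and 3.52 (SE 0.44), and the lymphoid and myeloid sphingosine phosphate receptor gene S1pr4 by 4.14 (SE 0.30). Ccrl2, a chemerin-binding receptor of activated myeloid cells, rose by 3.55 (SE 0.50). Without EO771-Br 1 there were 2 receptors higher. Of 27 cytokine receptors, 6 were lower and 3 higher. The interleukin 18 receptor chains Il18r1 and Il18rap fell by 4.71 (SE 0.36) and 2.64 (SE 0.19), and Csf3r, the receptor of the neutrophil growth factor G-CSF, by 3.17 (SE 0.50). Il10ra, the interleukin 10 receptor, rose by 1.80 (SE 0.23), and Csf1r, the receptor of the macrophage growth factor, by 2.06 (SE 0.34). The call of Csf3r ended without naïve-BM 1 or naïve-BM 2 (limma adjusted p up to 0.0149) and that of Csf1r without PyMT-BM 1 (limma adjusted p = 0.0112) and with all 14 arrays (limma adjusted p = 0.0218). Il10ra was not called with equally weighted groups (limma adjusted p = 0.0177). Lower receptors numbered 3 without naïve-BM 1, and higher ones 1 without PyMT-BM 1 and 5 without EO771-Br 1.

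Among the gains, a list of genes around the study comes first. It holds Mmp14, Dab2, Emp1 and Trem2, which the study picked on these arrays in its search for a promoter active in myeloid cells of BrM, so that their direction is no independent evidence. It also holds genes of the sort and of the cell populations the study stained, and the macrophage and chemokine genes Arg1, Ccl7, Cxcl10 and Cxcl16, which were added here. Spp1, another gene of the study's search, was not analysed here. Of 13 measured members, 9 were higher and none lower. Mmp14, a membrane-bound matrix metalloproteinase, had 11.97, 12.09 and 12.81 in BrM, against 6.35, 6.91 and 6.85 in bone marrow. It was 47.7-fold higher (5.58, SE 0.27, limma adjusted p = 1.17e-06), and the BrM arrays spread over less than 1 log2 unit, with both EO771-Br arrays highest. Its other probe was near background in both tissues, at a mean of 3.39 in BrM and 3.80 in bone marrow. Dab2, an endocytic adaptor, had 11.76, 12.16 and 12.66 in BrM, against 5.97, 4.58 and 4.99, and its log2 difference was 7.003 (SE 0.31, limma adjusted p = 1.04e-06). Emp1, a membrane protein of epithelia, rose by 6.10 (SE 0.61), the chemokine genes Ccl7 and Cxcl16 by 7.37 (SE 0.70) and 5.52 (SE 0.30) and Trem2, a lipid-sensing receptor of macrophages, by 4.07 (SE 0.26). Arg1, the arginase of alternatively activated macrophages, was not even across the BrM arrays. It had 11.68 to 12.78 in PyMT-Br and 9.30 and 6.97 in EO771-Br, against 4.04, 3.69 and 3.98 in marrow. Its difference of 7.04 (SE 1.15, limma adjusted p = 0.00211) was not called when any 1 of the 3 marrow arrays was left out (limma adjusted p up to 0.0142). Cxcl10, a chemokine induced by interferon, ran the other way, with 12.48 and 12.97 in EO771-Br and 8.02 to 11.51 in PyMT-Br, against 5.55 to 5.57 in bone marrow. Its difference of 5.06 (SE 0.98, limma adjusted p = 0.00589) lost its call without PyMT-Br 3 or without any 1 marrow array (limma adjusted p up to 0.0294).

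**Figure D3:**
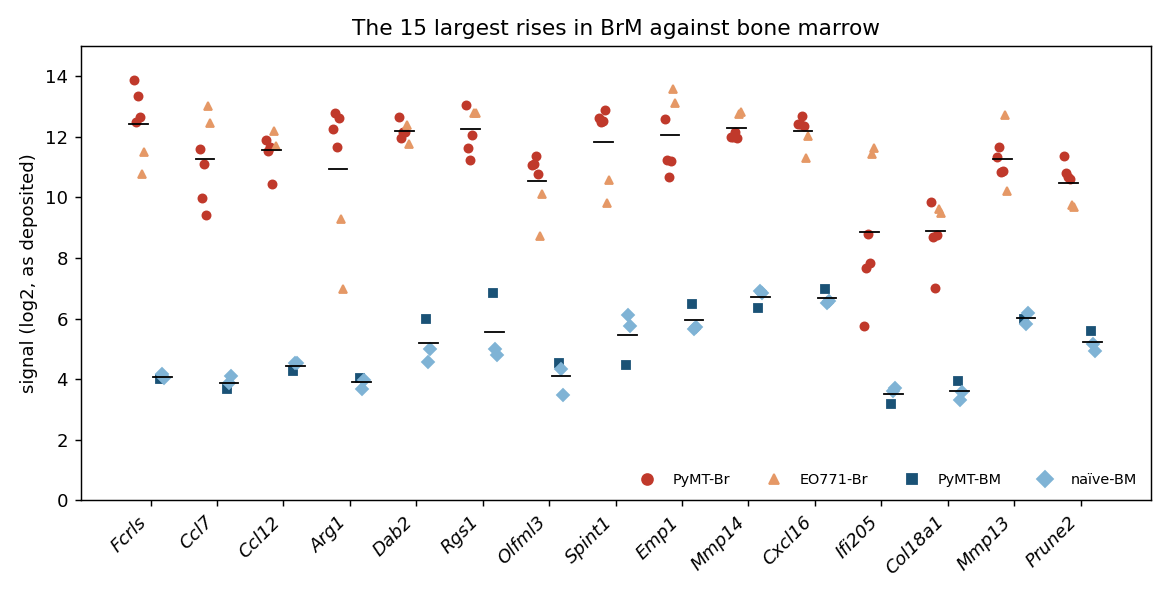
Log2 signal of the 15 genes with the largest rises among called genes, drawn as for the falls with BrM left of bone marrow in each pair and black lines at the group means. The BrM values lie above all marrow values of the same gene because only genes without overlap were eligible. In Arg1, Spint1 and Ifi205 the EO771-Br arrays stand apart from PyMT-Br.

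Part of the macrophage markers rose. Of 26 measured, 11 were higher and none lower (median 1.79), and 7 were higher without naïve-BM 1 or naïve-BM 2. Apoe, the lipid carrier, had 13.46, 13.88 and 13.99 in BrM, against 10.27, 10.18 and 10.28 in bone marrow (3.59, SE 0.18, limma adjusted p = 1.53e-06). The 3 chains of complement C1q, C1qa, C1qb and C1qc, rose by 3.37 (SE 0.43), 3.46 (SE 0.38) and 3.43 (SE 0.41), and in each the marrow array of the tumor-bearing mouse, PyMT-BM 1, lay above both naïve-BM arrays. The scavenger receptor Msr1 and the high-affinity Fc receptor Fcgr1 rose by 3.73 (SE 0.37) and 3.67 (SE 0.42). Adgre1, which encodes F4/80, had 9.12, 9.89 and 10.15 in BrM, against 8.06, 8.16 and 8.25 in marrow (1.57, SE 0.25, limma adjusted p = 0.00183), and its call ended without naïve-BM 1 or naïve-BM 2 (limma adjusted p up to 0.0121) and with all 14 arrays (limma adjusted p = 0.0104). Of 28 scavenger, phagocytic and Fc receptors, 10 were higher and none lower (median 0.75). Of 16 monocyte genes, 4 were higher and none lower, and 2 without PyMT-BM 1 or with all 14 arrays. Irf8, a factor of monocyte commitment, rose by 1.47 (SE 0.21), but was not called with all 14 arrays (limma adjusted p = 0.0502) or with equally weighted groups (limma adjusted p = 0.0218). Ly6c1, of the Ly6C antigens used to mark inflammatory monocytes, had 13.66 and 13.85 in EO771-Br and 6.87 to 10.11 in PyMT-Br, against 12.49 to 12.80 in bone marrow. It was chosen after its values were seen and was not called (limma adjusted p = 0.365).

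The highest log2 difference among the called genes was that of Fcrls, an Fc receptor-like gene of microglia. It had 10.76, 12.58 and 13.87 in BrM, against 3.99, 4.17 and 4.03 in bone marrow, where it was near the median of the array. Its difference was 8.38 (SE 0.58, limma adjusted p = 8.89e-06), and its other probes rose by 6.49 and 7.51. Olfml3 and Tmem119, which are also much used as microglial genes, rose by 6.41 (SE 0.53) and 4.73 (SE 0.39). For all 3 genes both EO771-Br arrays lay below all PyMT-Br arrays. Of 14 microglial genes, however, only these and Sparc were called, and Sparc was not with equally weighted groups (limma adjusted p = 0.0142). P2ry12, the purinergic receptor that defines microglia, had 5.29, 5.85 and 6.33 in BrM, against 4.78, 5.71 and 5.76 in marrow (0.41, SE 0.29, limma adjusted p = 0.468). The microglial factor Sall1 had 5.15 to 5.76 in BrM, against 4.39 to 5.11 (0.63, SE 0.23, limma adjusted p = 0.105), and the lectin Siglech had 3.79 to 5.56, against 5.06 to 6.01 (-0.83, SE 0.39, limma adjusted p = 0.231). Cx3cr1 and Gpr34 had differences of 2.92 (SE 0.83, limma adjusted p = 0.0410) and 2.79 (SE 0.77, limma adjusted p = 0.0351), with 4.07 and 4.76 in PyMT and 0.84 and 0.53 in EO771, and each was called without EO771-Br 1, with equally weighted groups and with the mouse number as a random block. Without PyMT-Br 3, 1 member was lower. The BrM and marrow arrays overlapped in P2ry12 and Siglech, and the median difference of the 14 genes was 0.60.

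Part of the genes for handling engulfed material rose. Of 31 lysosome genes, 11 were higher and 1 lower (median 1.18), with 7 higher without naïve-BM 1. Lgmn, the asparaginyl protease legumain, had 13.24, 13.53 and 13.79 in BrM, against 9.76, 9.61 and 9.59 in bone marrow, and was 14.6-fold higher (3.86, SE 0.18, limma adjusted p = 1.17e-06). Ctsa, cathepsin A, rose by 2.73 (SE 0.29). The member that fell, by 2.00 (SE 0.22), was Ctse, an aspartic protease of endosomes in lymphoid and erythroid cells. Of 20 genes of lipid uptake and efflux, 5 were higher and none lower, among them Ch25h, which makes the oxysterol 25-hydroxycholesterol (5.14, SE 0.31). None of 16 cholesterol synthesis genes was called by limma, 5 had an unadjusted p under 0.05, and 1 was higher without EO771-Br 1 or EO771-Br 2. Of 17 complement genes, 5 were higher and 1, the decay-accelerating factor Cd55, was lower by 3.60 (SE 0.26), and 3 were lower with a block for the set of mice. The higher ones numbered 3 without PyMT-Br 2, PyMT-Br 3, EO771-Br 2 or any 1 marrow array, and with all 14 arrays.

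TFEB and MITF drive lysosome genes through the motif CACGTG, which was in 5 of the 10 promoter windows (50%) of the 8 lysosome genes called higher that had a window, against 9.50% of windows of all genes called higher and 6.02% of all windows. Lamp1, a lysosomal membrane protein, is shown as the member with the most copies, 4 of them within 70 bases before the start, in capitals as above. Its difference was 1.18 (SE 0.25, limma adjusted p = 0.00886), and the call ended when any 1 array other than EO771-Br 1 was left out (limma adjusted p up to 0.0548).
Lamp1, chr8:13159091-13159160, plus strand: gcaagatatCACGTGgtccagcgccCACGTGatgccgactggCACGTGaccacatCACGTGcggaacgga

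Part of the chemokine ligands rose. Of 33 measured, 10 were higher and none lower (median 1.48), and 15 (against 12.1% of all genes) had all BrM arrays above all marrow arrays. Ccl12, which attracts monocytes, had 10.44, 11.68 and 12.21 in BrM, against 4.27, 4.53 and 4.54 in bone marrow, and Ccl7, a related ligand, 9.43, 11.35 and 13.01, against 3.67, 3.89 and 4.10. In marrow both were near the median of the array. Their log2 differences were 7.12 (SE 0.34, limma adjusted p = 1.17e-06) and 7.37 (SE 0.70, limma adjusted p = 6.69e-05). The count was 5 without PyMT-BM 1, 4 without naïve-BM 1 and 3 without naïve-BM 2, and the 3 that hold the largest rises, Ccl7, Ccl12 and Cxcl16, were called whichever single array was left out. Of 38 cytokine and growth factor ligands, 3 were higher (5 with all 14 arrays) and 1 lower, near the shares of all genes (5.21% and 5.31%). The higher ones included Pdgfa, a platelet-derived growth factor chain (3.72, SE 0.26), and progranulin, Grn (1.88, SE 0.23). The lower one was the activin chain Inhba (-3.23). Its call ended when any 1 array other than EO771-Br 1 was left out (limma adjusted p up to 0.0368).

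**Figure D4:**
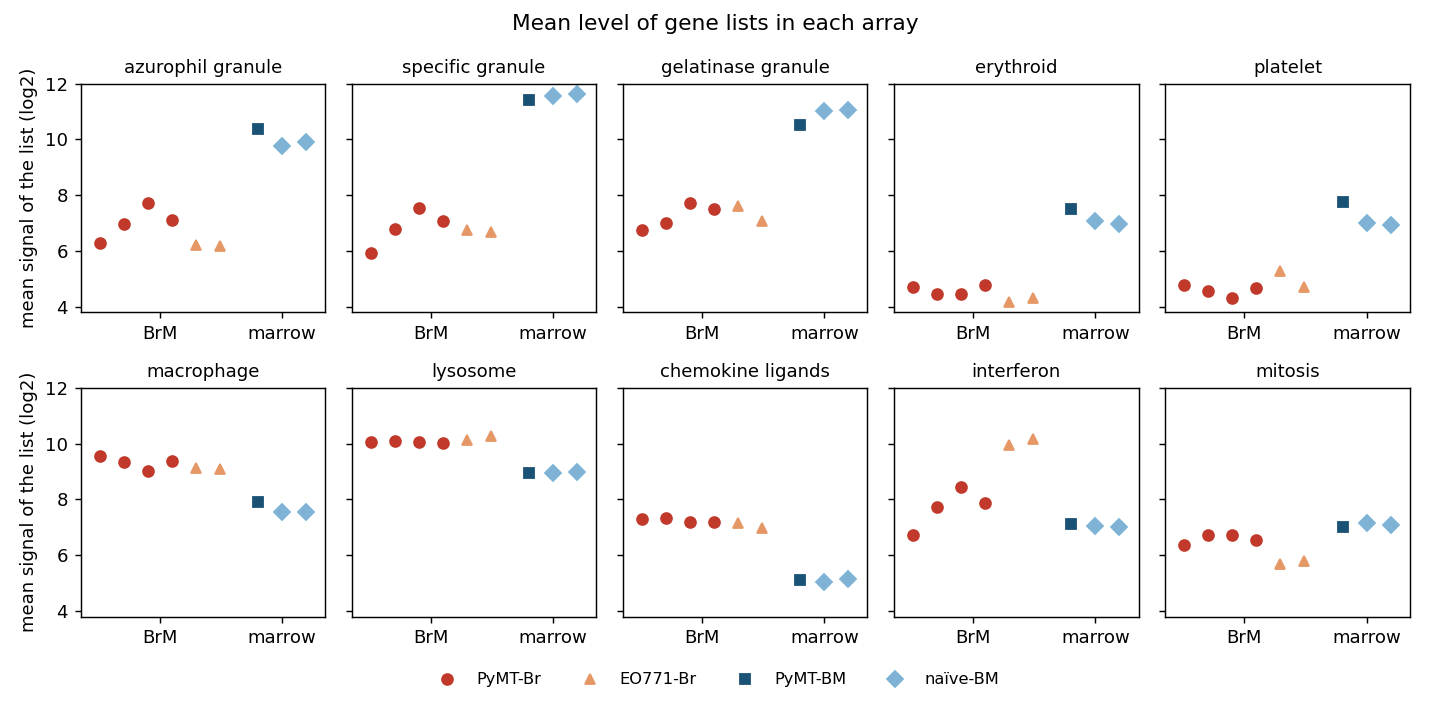
Mean log2 signal over the measured members of 10 gene lists, 1 point per array, with the 6 BrM arrays left and the 3 bone marrow arrays right in each panel. The specific granule list lies at 5.94 to 7.54 in BrM and 11.40 to 11.63 in bone marrow, and the chemokine list at 6.97 to 7.32 in BrM and 5.03 to 5.13 in bone marrow; EO771-Br stands apart in the interferon and mitosis panels.

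Enzymes that cut the matrix changed in both directions. Among 23 metalloproteinase and TIMP genes, 6 were higher and 3 lower. Mmp13, a collagenase, had 10.20, 11.10 and 12.71 in BrM, against 5.99, 5.83 and 6.19 in bone marrow (5.27, SE 0.45, limma adjusted p = 3.44e-05), and the inhibitor Timp1 rose by 4.41 (SE 0.21). Those that fell were Mmp9, Mmp25 and Mmp8, products of neutrophils, by 4.82 (SE 0.83), 3.57 (SE 0.63) and 1.92 (SE 0.32). Higher members numbered 3 when any 1 marrow array was left out. Lower members numbered 1 without PyMT-BM 1, and none was lower without naïve-BM 1 or naïve-BM 2. Of 23 extracellular matrix genes, 8 were higher and none lower, and 5 without PyMT-BM 1 or naïve-BM 1. Ecm1, a secreted matrix protein, had 10.65, 12.19 and 12.45 in BrM, against 6.92, 6.83 and 6.86 (5.11, SE 0.37, limma adjusted p = 1.14e-05), and the collagen gene Col6a1 rose by 4.35 (SE 0.61). Col18a1, a basement membrane collagen outside that list, rose by 5.30 (SE 0.54). Of 28 integrin and adhesion genes, 8 were higher, among them Itgb5 (3.08, SE 0.20), a chain of the vitronectin receptor. There were 4 without naïve-BM 1 or with all 14 arrays, and 5 without PyMT-BM 1 or naïve-BM 2.

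Part of the genes that restrain or costimulate T cells rose, while genes of the interferon response and of antigen presentation differed between the BrM arrays. Of 18 checkpoint and costimulation genes, 8 were higher and none lower (median 1.68), and 5 without naïve-BM 1 or naïve-BM 2. Cd274, which encodes PD-L1, had 10.40, 11.001 and 12.27 in BrM, against 7.73, 7.48 and 7.64 in bone marrow, and was 12.7-fold higher (3.67, SE 0.40, limma adjusted p = 1.65e-04). Cd276, encoding B7-H3, and Havcr2, encoding TIM-3, rose by 4.42 (SE 0.27) and 4.08 (SE 0.36). Of 32 interferon-stimulated genes, 5 were higher and none lower, and 2 without naïve-BM 1 or naïve-BM 2. The guanylate-binding protein genes Gbp3 and Gbp5 rose by 3.38 (SE 0.31) and 3.70 (SE 0.50), and Gbp5 was not called when its probes were averaged (limma adjusted p = 0.0121). The mean level of that list was 9.94 and 10.16 in the EO771-Br arrays and 6.71 to 8.46 in PyMT-Br, against 7.03 to 7.11 in bone marrow, so that the lowest PyMT-Br array lay below all marrow arrays. Of 12 genes of MHC class II and antigen loading, only Ifi30, a thiol reductase of the endosome, was called (3.02, SE 0.34), although 5 were called without EO771-Br 1, 4 with a block for the set of mice and 2 with all 14 arrays. Ciita, the master regulator of these genes, had 8.85 to 10.04 in PyMT-Br and 6.24 and 7.35 in EO771-Br, against 7.09, 6.65 and 6.78 in bone marrow. The class II chain H2-Eb1 had 13.64 to 14.14 in PyMT-Br and 10.96 and 11.83 in EO771-Br, against 11.65, 11.22 and 11.19 in marrow. Of 15 dendritic cell genes, 5 were higher, the actin-bundling gene Fscn1 by 2.54 (SE 0.34), with 2 higher without naïve-BM 1 or naïve-BM 2 and 3 with all 14 arrays. Fscn1 was not called with all 14 arrays (limma adjusted p = 0.0219) or with equally weighted groups (limma adjusted p = 0.0355).

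Cell cycle regulators changed in both directions. Cdkn1a, which encodes the inhibitor p21, had 9.81, 10.67 and 11.98 in BrM, against 6.15, 6.59 and 6.50 in bone marrow (4.40, SE 0.54, limma adjusted p = 3.72e-04), whereas the inhibitor gene Cdkn2d fell by 2.53 (SE 0.23). Cyclin D1, Ccnd1, had 11.05, 11.48 and 12.04, against 8.22, 7.23 and 7.01 (4.01, SE 0.31, limma adjusted p = 1.53e-05), and cyclin D3, Ccnd3, 9.52, 9.89 and 10.06, against 12.92, 13.08 and 13.01 (-3.16, SE 0.19, limma adjusted p = 3.57e-06). Neither cyclin overlapped between the tissues, which held for every called probe. Of 29 replication genes 2 and of 28 mitosis genes 1 were lower and none higher, near the 5.31% of all genes called lower. These calls ended when 1 of several arrays was left out, naïve-BM 1 and naïve-BM 2 among them in each case. With a block for the set of mice, 6 replication and 7 mitosis genes were lower. The mean level of the mitosis list was 6.35 to 6.73 in PyMT-Br and 5.68 and 5.80 in EO771-Br, against 7.001 to 7.141 in bone marrow. None of 19 ribosomal protein genes was called by limma, 12 had an unadjusted p under 0.05, and 1 was higher without EO771-Br 2. Of 19 genes of ribosome assembly, 7 were higher and 1 lower, but 1 was higher without naïve-BM 1 or naïve-BM 2. Of these Mybbp1a, a nucleolar protein, rose by 1.68 (SE 0.19), but was not called with equally weighted groups (limma adjusted p = 0.0126).

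Glucose and iron handling genes were called in both directions. Of 17 glycolysis genes, 2 were higher and 2 lower (median -0.06). The higher ones numbered 1 without PyMT-Br 1, PyMT-Br 4 or any 1 marrow array, and the lower ones 1 without any 1 marrow array or with all 14 arrays. Slc2a3, the glucose transporter of neutrophils and platelets, had 6.83, 7.19 and 7.48 in BrM, against 11.91, 12.27 and 12.19 in bone marrow, and was 30.5-fold lower (-4.93, SE 0.21, limma adjusted p = 9.84e-07). Slc2a1, the transporter of most other cells, had 10.24, 10.73 and 11.47, against 9.18, 9.51 and 9.34 (1.41, SE 0.28, limma adjusted p = 0.00651), a call that ended without PyMT-Br 1, PyMT-Br 4, EO771-Br 2 or any 1 marrow array (limma adjusted p up to 0.0328). The glycolytic kinase gene Pfkp rose by 1.66 (SE 0.19). None of 18 respiratory chain genes was called by limma, and 3 had an unadjusted p under 0.05. Of 15 iron handling genes, 2 were higher and 3 lower (median 0.40), with 1 higher without PyMT-Br 2 or PyMT-Br 3, and none without naïve-BM 1 or naïve-BM 2 or with all 14 arrays. The higher ones were Hfe, which regulates iron uptake (2.19, SE 0.40), and the biliverdin reductase gene Blvra (1.35, SE 0.21). The call of Hfe ended without PyMT-Br 2, PyMT-Br 3 or any 1 marrow array (limma adjusted p up to 0.0261) and that of Blvra without naïve-BM 1 or naïve-BM 2 (limma adjusted p up to 0.0152). Tfrc, the transferrin receptor, fell by 1.95 (SE 0.35), a call that ended without any 1 marrow array (limma adjusted p up to 0.0188). Slc40a1, which encodes ferroportin, the exporter of iron from macrophages and red cell precursors, fell by 4.41 (SE 0.43), and Lcn2, an iron-binding protein of neutrophil granules, by 4.71 (SE 0.67). Ncf1, a subunit of the oxidase that makes the neutrophil's respiratory burst, fell by 2.92 (SE 0.30).

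Values that move with tissue handling or with other cells stood beside these results. Of 28 immediate-early and dissociation stress genes, which respond when tissue is taken apart, 9 were higher and none lower (median 1.26). The transcription factor gene Egr1 had 10.83, 11.81 and 12.55 in BrM, against 6.70, 8.31 and 8.29 in bone marrow (4.05, SE 0.45, limma adjusted p = 1.96e-04), and the mean level of the list was 8.27 to 9.60 in BrM, against 7.23 to 7.41. Fosb and Hspa1a rose by 4.77 (SE 0.74) and 4.73 (SE 0.70), calls that ended without naïve-BM 1 (limma adjusted p = 0.0102) and without naïve-BM 2 (limma adjusted p = 0.0102). The part of tissue dissociation in the gains was not tested. Of 14 epithelial and carcinoma genes, 1 was higher, near the 5.21% of all genes called higher. It was the keratin Krt8 (2.77, SE 0.45), which was not called without naïve-BM 1 or naïve-BM 2 (limma adjusted p up to 0.0136). The mean level of the 14 genes was 4.15 to 5.21 in BrM, against 3.95 to 4.31 in marrow. Rhox5, a homeobox gene of the reproductive tract chosen after its values were seen, had 10.21 and 9.96 in EO771-Br and 3.83 to 5.04 in PyMT-Br, against 3.62 to 3.90 in bone marrow. Of 14 brain cell genes only Mbp, a myelin gene with transcripts in blood cells too, was called, and it was lower (-1.33, SE 0.19), but not when all its probes were averaged (limma adjusted p = 0.0890). Of 16 endothelial, fibroblast and pericyte genes, 2 were higher, Dcn and Eng, with calls that ended without 2 and 5 arrays, naïve-BM 1 in both (limma adjusted p up to 0.0264 and 0.0314), at mean list levels of 4.78 to 5.46 in BrM, against 4.54 to 4.65. The part of tumor or stromal RNA in the gains was not tested.

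PyMT and EO771 were then taken separately, in a fit of 4 conditions in which the lone PyMT-BM array was assumed to vary like the others. The comparisons use different arrays but 1 estimate of the spread from all 9, so that their calls are not independent. Against PyMT-BM, 819 probes were higher and 877 lower in PyMT-Br, or 2.34% and 2.77% of genes. Against naïve-BM, 1535 were higher and 1586 lower in EO771-Br, or 4.69% and 5.02% of genes. Called in both in the same direction were 1195 probes, which made up 70.5% of the PyMT calls and 38.3% of the EO771 calls, and none was called in opposite directions. Across all probes, which are not independent of each other, the differences of the models correlated at 0.638. Without naïve-BM 1 or EO771-Br 1 the EO771 calls numbered 989 and 1038, and without naïve-BM 2 or EO771-Br 2 they numbered 935 and 1117. The PyMT calls numbered 1109 without PyMT-Br 2, 1079 without PyMT-Br 4, 1039 without either EO771-Br array and 956 without either naïve-BM array.

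The losses of both models were set side by side. Slc4a1 differed by -8.38 in PyMT and -8.96 in EO771, Itgb2l by -7.54 and -8.59 and Fcnb by -6.87 and -7.11. Of the 52 granule genes, 21 were lower in PyMT and 32 in EO771. Among the gains, Mmp14 stood at 5.68 in PyMT and 5.90 in EO771 and Ccl12 at 7.11 and 7.42, but Arg1 at 8.30 and 4.30, Spint1, a protease inhibitor, at 8.16 and 4.25, and Ifi205, an interferon-inducible gene, at 4.32 and 7.86. The pooled call of Ifi205 ended when any 1 array other than PyMT-Br 1 was left out (limma adjusted p up to 0.0410). Of 32 interferon-stimulated genes 2 were higher in PyMT and 19 in EO771, of 12 class II genes 6 and 2, and of 28 mitosis genes none was lower in PyMT and 15 in EO771. When the difference between the models was itself tested, no probe was called higher or lower (0% of genes) by limma (smallest adjusted p = 0.0576), with 4750 at an unadjusted p under 0.05. The cancer model, the tumor status of the marrow donors and the set of mice cannot be told apart. The EO771 comparison and the difference between the models also carry the difference in Xist and Eif2s3y between EO771-Br and naïve-BM.

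**Figure D5:**
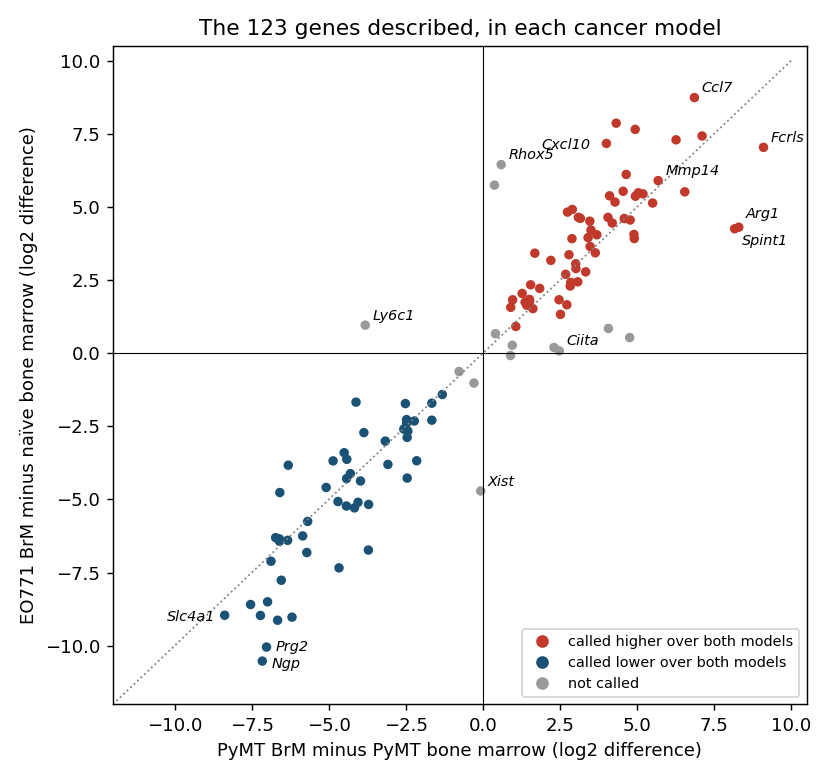
Log2 difference of BrM minus bone marrow for each gene described in the text, in PyMT (x axis) and in EO771 (y axis), with a dotted line where both are equal. Called genes lie in the lower left (blue) or upper right (red) corner, while Ly6c1, Xist and Rhox5 (grey, not called) lie off the line, at -3.82, -0.07 and 0.59 in PyMT and 0.96, -4.71 and 6.44 in EO771.

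The spleens were set beside these values in a fit of all 14 arrays, which shares arrays with the comparison above. Between spleen and bone marrow 1 gene (0.00525%) was called higher and none (0%) lower by limma, while against the spleens 629 genes (3.30%) were higher and 615 (3.23%) lower in BrM. The spleen arrays were not alike. In the eosinophil, basophil and mast cell list PyMT-S 2 had a mean level of 7.41. The other spleens had 5.08 to 5.28 and bone marrow 6.90 to 7.59. In the class II list PyMT-S 2 had 8.95, against 11.14 to 11.80 in the other spleens and 8.80 to 9.27 in marrow. The effect of this array on the counts was not tested. Granule genes were high in the spleen arrays, with Ngp at 12.37 to 14.22, Camp at 13.32 to 13.78 and Ltf at 14.11 to 14.46. Of the 52 granule genes, 33 were lower in BrM than in spleen. Erythroid and pre-B genes were spread more widely in spleen, with Slc4a1 at 4.83 to 13.25 and Vpreb1 at 2.84 to 6.33, and 3 of 17 erythroid genes were lower in BrM than in spleen. Of the genes gained in BrM, Ccl7 was at 2.09 to 4.14 and Fcrls at 2.30 to 4.13 in spleen, near the median of the array. Dab2 was at 4.84 to 5.32 and Mmp14 at 3.88 to 6.94, below all BrM arrays. Others were present in part of the spleens, such as Ccnd1 at 7.33 to 12.11, Spint1 at 4.40 to 10.16 and Havcr2 at 5.54 to 9.35.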

How the data were processed

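RNA of sorted GFP+CD11b+ cells had been hybridized to Illumina MouseWG-6 v2 arrays, 1 array per sample. The deposited values were log2 signals that the authors had quantile-normalized across all 14 arrays. The log base was read from their range. GenomeStudio 2011.1 and limma are named in the submitters' processing notes, and the method of background correction is not given in the sources used here. Arrays give no read depth, so precision rests on how many there were.

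The 6 BrM and 3 bone marrow arrays were fitted in limma 3.58.1 (R 4.3.3), and p-values were adjusted (Benjamini-Hochberg) over all 45281 probes. Probes with 1 gene symbol numbered 34885, those with several 18 and those with none 10378. The brightest probe over 14 arrays stood for a gene. Scripts were tested on simulated data. The study's methods call the arrays biological replicates, but the naïve-BM arrays carry the same mouse number, so that their spread may be technical. The genes named were the 15 largest rises and falls whose arrays do not overlap, up to 3 called members of each list in each direction and the members of a list around the study's own genes. Further genes were given as members of small lists or, where stated, after their values were seen. Members and lists were chosen with earlier results of these data known. Alternatives were other fits, scalings, thresholds and left-out arrays.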

Additional observations from a re-analysis of the deposited data

Results flagged for a closer look

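Single arrays stood apart from their group in 21 of 246 groups of values tested (8.54%). Chance flags about 1 in 20 among independent groups of like arrays. These groups are not independent, because each gene was tested in the 6 BrM arrays and again in the 4 PyMT-Br arrays among them. The 6 BrM arrays also mix both cancer models, so the rates cannot be set against each other directly. The measure is the gap to the nearest array divided by the range of the group, so that a small range can also give a high value. PyMT-Br 3 was the highest of the 6 BrM arrays in Ms4a3 (0.687) and Elane (0.666). EO771-Br 1 was the lowest of the 6 BrM arrays in Apoe (0.726) and Itgb5 (0.715). PyMT-Br 1 was the highest of the 6 BrM arrays in Igll1 (0.751) and Vpreb3 (0.663). EO771-Br 1 was the highest of the 6 BrM arrays in Il18rap (0.675) and Slc40a1 (0.717). PyMT-Br 1 was the lowest of the 6 BrM arrays in Mmp25 (0.649). PyMT-Br 3 was the lowest of the 6 BrM arrays in Ecm1 (0.7097). PyMT-Br 4 was the lowest of the 6 BrM arrays in Cd276 (0.6254). PyMT-Br 1 was the highest of the 4 PyMT-Br arrays in Slc4a1 (0.863), Igll1 (0.877), Cdkn1a (0.940) and Itgam (0.865). PyMT-Br 2 was the lowest of the 4 PyMT-Br arrays in Il18r1 (0.929). PyMT-Br 3 was the lowest of the 4 PyMT-Br arrays in Il18rap (0.857, within a range of only 4.965 to 5.126) and Dcn (0.843). PyMT-Br 4 was the highest of the 4 PyMT-Br arrays in C1qb (1.000), but only at 14.253, against 14.160 in the nearest and in the farthest array. PyMT-Br 3 was the highest of the 4 PyMT-Br arrays in Pfkp (0.830). PyMT-Br 4 was the lowest of the 4 PyMT-Br arrays in Mybbp1a (0.897). Ly6c1 differed by -3.82 in PyMT and by 0.96 in EO771, so that the models moved in opposite directions, by -4.78 (limma adjusted p = 0.268, not called).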

How the results depend on the processing

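The counts of 1678 higher and 1772 lower probes were 743 and 1013 with the naïve-BM arrays averaged to 1, and 3257 and 2891 at an adjusted p under 0.05. With arrays centred on the reference genes 1033 were higher. Leaving out 1 array gave 729 to 1713 higher and 988 to 1694 lower probes. With naïve-BM averaged, 50.8% of the calls were shared, and 49.6% and 49.3% without naïve-BM 1 or naïve-BM 2. The title numbers were also used as a replicate block, which gave 593 higher and 848 lower probes. Deviations from the group mean did not correlate between samples of the same number (-0.02 to 0.04). In EO771-Br and naïve-BM, with 2 arrays each, these deviations mirror each other, and the lone PyMT-BM 1 has none. The values therefore cannot tell whether a number marks a shared batch. The 1696 PyMT calls were 636 with all 14 arrays in the fit, 4436 at an adjusted p under 0.05 and 956 to 1525 with 1 array left out. The 3121 EO771 calls were 1914, 6100 and 935 to 3040 under the same changes. No probe was called between the models under any of these settings, and no called probe changed sign. The cause of these changes was not tested, and the fits that leave 1 out also have fewer arrays.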
